A study of Mus musculus with 6 samples.

Results

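Dendritic cells are the antigen-presenting relatives of macrophages, and their genes can be read in any myeloid library that holds their RNA. The 34 genes described here mark dendritic cell subsets and were chosen by symbol, out of 55291 symbols in the deposited table; all 34 were found there. They fall into 8 genes of type 1 conventional dendritic cells, 2 genes of type 2 cells, 5 genes shared by conventional cells, 5 genes of plasmacytoid cells and 14 genes of migratory mature cells. The libraries came from polyadenylated RNA of tumour-associated macrophages of mouse liver tumours (hepatocellular carcinoma), with 3 libraries labelled TREM2_pos_TAM (TREM2+ here) and 3 labelled TREM2_neg_TAM (TREM2- here). TREM2 is a lipid-sensing surface receptor of macrophages. The labels give no strain, age, treatment or tumour model for either group. Nothing in them ties the replicates to separate mice, and the p-values therefore reflect only how far these samples varied, possibly for technical reasons.

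Conventional dendritic cells arise from FLT3-dependent precursors. Type 1 cells need IRF8 and BATF3, take up dead-cell material through CLEC9A and cross-present it to CD8 T cells, and carry the chemokine receptor XCR1. Type 2 cells rely on IRF4 and mainly prime CD4 T cells, and plasmacytoid cells, which depend on TCF4, are the main source of type I interferon in viral infection. Once mature, conventional cells switch on CCR7 and travel to lymph nodes. Many of these genes are not restricted to dendritic cells: Irf8 and Naaa are also made by macrophages, Cd24a and Spib by B cells, and Ccr7, Itgae, Dpp4 and Tnfrsf4 by T cells.

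Values are TPM (transcript abundance per length of each gene) after each library was rescaled to a total of 1000000. Where 3 values are given for a group they are those of replicates 1, 2 and 3 in that order, means are ± SD with n = 3, and differences are TREM2+ minus TREM2- on the log2(TPM + 1) scale ± the standard error of the limma fit. That scale understates the change of low genes. Adjusted p-values are those of limma with Benjamini-Hochberg adjustment over the 13788 genes that reached a TPM of 1 in 3 or more libraries, and a gene passed at an adjusted p under 0.05. Libraries held between 11493461 and 19929829 recovered reads. Trem2 itself stood at 37.0 ± 5.51 TPM in the TREM2+ and 19.5 ± 2.28 TPM in the TREM2- libraries (adjusted p = 0.0855). The groups did not overlap in Trem2, the difference did not pass, and neither group lacked the transcript. The macrophage genes Csf1r and Cd68 were present in all 6 libraries, with at least 172 TPM of Csf1r and at least 1169 TPM of Cd68.

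Most dendritic cell genes did not separate the groups, and those that did went in both directions. One adhesion gene of type 1 cells, Cadm1, was 3.69-fold higher in the TREM2+ libraries, and the lymph node homing receptor Ccr7 was 2.38-fold lower, a call that omitting any of 5 single libraries ended. These were the only 2 of the 34 genes to pass: 1 higher, where 2.05% of all genes tested were called higher, and 1 lower, where 0.37% were. In 3 genes (Cadm1, Socs2 and Apol7c) every TREM2+ library lay above every TREM2- library, as in 9.07% of all genes tested. In 10 genes every TREM2+ library lay below every TREM2- library, as in 7.62% of all genes tested: Xcr1, Itgae, Naaa, Flt3, Ccr7, Ccl22, Cacnb3, Tnfrsf4, Nudt17 and Serpinb6b. Without adjustment, 3 of the tested genes were higher and 8 lower at p under 0.05, beside 7.45% and 5.34% of all genes tested. Over all 34 genes the median difference was -0.26, beside -0.09 for all genes tested, and 26 of the 34 had a difference below 0, as did 61.0% of all genes tested. Mycl and Ccr9 were too low to be tested. Each library pools many cells, and fewer cells of a type and less RNA per cell cannot be told apart here.

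**Figure D1:**
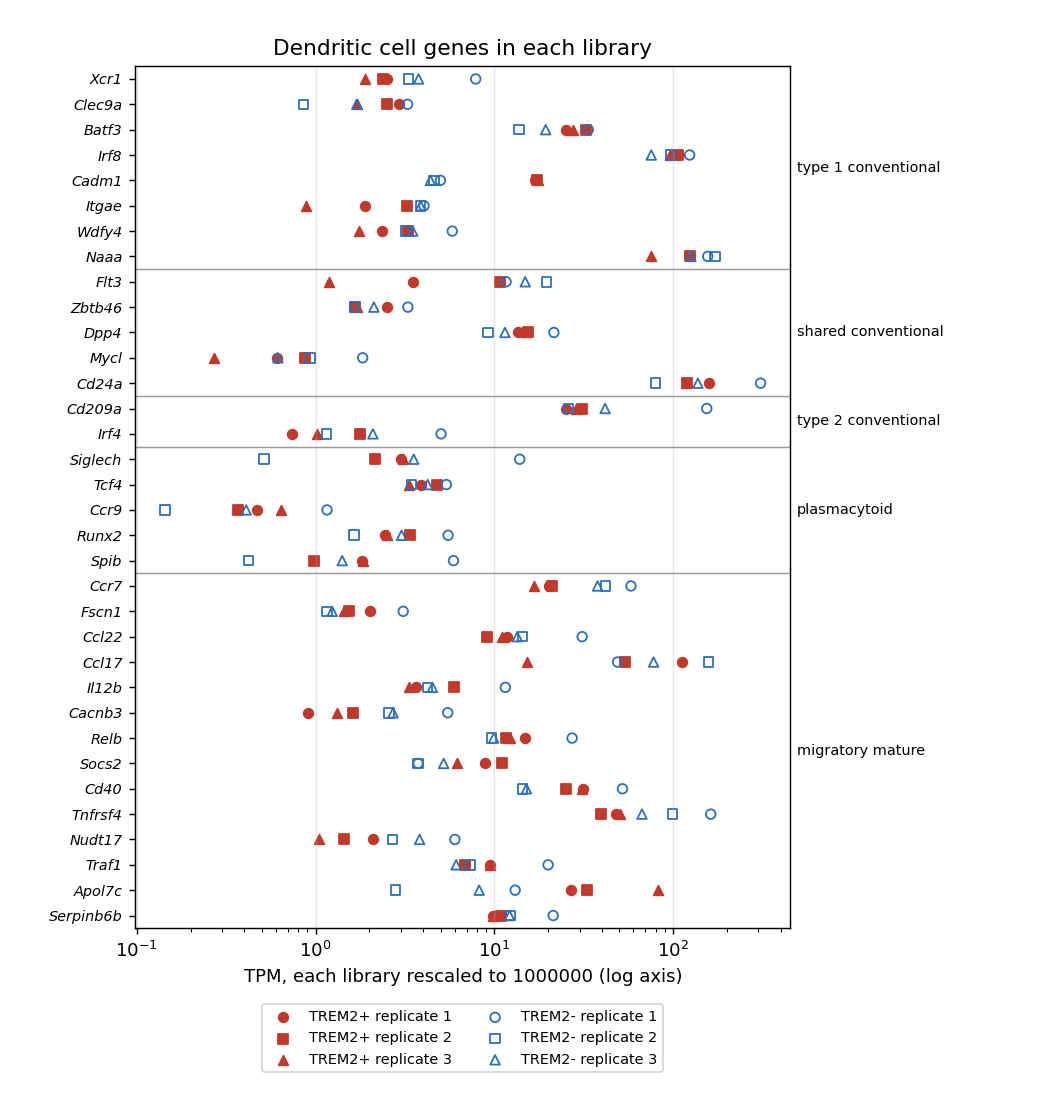
TPM of the 34 dendritic cell genes (rows, grouped by subset) in each of the 6 libraries on a log axis; filled red symbols are TREM2+ libraries, open blue symbols TREM2- libraries, and the symbol shape gives the replicate number. TREM2- replicate 1 (open blue circle) is the highest library for 28 of the 34 genes, while Cadm1 and Apol7c are higher in all 3 TREM2+ libraries.

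One library shaped many of these values. TREM2- replicate 1 was the highest of the 6 libraries for 28 of the 34 genes, where it was highest for 52.0% of all genes tested. In its shares of repeat and mitochondrial transcripts it differed from the other TREM2- libraries but was close to TREM2+ replicate 1. Cell type markers did not all share that likeness. Macrophage markers summed to 3917 TPM in TREM2- replicate 1 and 16954 TPM in TREM2+ replicate 1, and T cell markers to 1138 and 355 TPM. Neutrophil markers were closer, at 20721 and 16180 TPM. The Gm10800 repeat family, 12 predicted genes, took 0.43% of the TPM of TREM2- replicate 1, against 12.9% and 24.6% in TREM2- replicates 2 and 3. In the TREM2+ libraries the family took 0.70%, 5.05% and 17.5%, so its share rose with replicate number in both groups. Mitochondrial genes took 12.3% of the TPM of TREM2- replicate 1, against 2.42% and 2.96% in TREM2- replicates 2 and 3. Their share was 10.02%, 3.78% and 6.72% in the TREM2+ libraries. Such shares enter every rescaled value; with the libraries rescaled without the repeat family Cadm1 and Ccr7 stayed called (adjusted p = 0.0103 and adjusted p = 0.0131). TREM2- replicate 2 was lowest for 14 of the 34 and TREM2+ replicate 3 for 12, against 14.4% and 37.8% of all genes tested. Without TREM2- replicate 1 the median difference of the 32 genes still tested was 0.03, beside 0.05 for all 13200 genes then tested, and 15 had a difference below 0, beside 43.7% of all genes. The groups then did not overlap in 9 of them with TREM2+ higher and in 10 with TREM2+ lower, beside 20.6% and 8.75% of all genes. The same library was also highest for 10 of 10 T cell, 10 of 10 B cell, 6 of 6 natural killer cell and 6 of 7 basophil marker genes. It was highest for 8 of 9 hepatocyte and 4 of 6 plasma cell markers. In the other lists it was highest for 1 of 10 macrophage, 3 of 8 monocyte and 1 of 8 neutrophil markers. For endothelial, epithelial and stellate cell markers it was highest for 0 of 9, 2 of 8 and 3 of 8. The part of any of these cells in the dendritic cell values was not tested.

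Among the 8 type 1 genes 1 was called higher and none lower; without adjustment, 1 lay higher and 2 lower at p under 0.05. The genes that define these cells were low and did not move together. Xcr1, the receptor for the chemokine XCL1, stood at 2.51, 2.39 and 1.89 TPM in the TREM2+ libraries and at 7.86, 3.31 and 3.77 TPM in the TREM2- libraries, with 54 to 86 and 108 to 312 reads. All 3 TREM2- libraries were above all 3 TREM2+ libraries, but the difference of -0.80 ± 0.31 did not pass (adjusted p = 0.309) and was -0.48 without TREM2- replicate 1. Clec9a, the receptor for actin of dead cells, read 2.92, 2.51 and 1.70 TPM against 3.27, 0.86 and 1.70 TPM. Its groups overlapped, with a difference of 0.27 ± 0.34 and a 95% interval from -0.51 to 1.04. Clec9a shares exon sequence on the same strand with Clec1b in the annotation, so its reads cannot be assigned with certainty.

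The transcription factor genes Batf3 and Irf8 lay much higher than the receptor genes Xcr1 and Clec9a. Batf3, the AP-1 family partner of IRF8, stood at 25.1, 32.8 and 27.7 TPM in the TREM2+ libraries and at 33.5, 13.8 and 19.4 TPM in the TREM2- libraries. TREM2- replicate 1 was level with the highest TREM2+ library and the other TREM2- libraries were below all of them, and the difference was 0.43 ± 0.32 with a 95% interval from -0.29 to 1.14. It was 0.76 without TREM2- replicate 1, where the groups no longer overlapped, and 0.15 without TREM2- replicate 2, and passed in neither. Irf8 read 106, 106 and 96.3 TPM against 124, 96.9 and 75.5 TPM. Its groups overlapped with nearly equal means, and the difference of 0.09 ± 0.23 had an interval from -0.44 to 0.62. Wdfy4, needed for cross-presentation in type 1 cells, averaged 2.46 ± 0.76 against 4.17 ± 1.44 TPM, with overlap of the groups and a difference of -0.57 that was -0.35 without TREM2- replicate 1.

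Cadm1, an immunoglobulin-superfamily adhesion molecule that binds CRTAM on T cells, was the clearest change among them (ENSMUSG00000032076.19, chromosome 9, 47530173 to 47857637, mm10). Its TPM was 16.8, 17.3 and 17.5 in the TREM2+ libraries against 4.99, 4.60 and 4.39 in the TREM2- libraries. The values hardly varied within a group and lay far apart between groups. The difference of 1.69 ± 0.20 passed with an adjusted p of 0.0057. Omitting any 1 of the 6 libraries kept the call, with differences from 1.65 to 1.73 and adjusted p-values from 0.0084 to 0.0261, and was lost without both libraries numbered 3 (adjusted p = 0.145). Cadm1 is also made outside dendritic cells, among others by epithelial and mast cells. The TREM2+ libraries also carried more transcripts of 9 of 9 sinusoidal and vascular endothelial markers without overlap, with a summed 209.6 to 291 TPM against 18.5 to 36.7 TPM and no marker at 0 in any library. Their part in the Cadm1 difference was not tested.

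The remaining type 1 genes were higher in the TREM2- libraries without passing. Itgae, the integrin subunit CD103, stood at 1.90, 3.25 and 0.88 TPM against 4.04, 3.86 and 3.87 TPM. The TREM2- libraries were closely alike and above all TREM2+ libraries, with a difference of -0.79 ± 0.32 (adjusted p = 0.332) that was -0.49 without TREM2+ replicate 3. Naaa, a lysosomal amidase of lipid amides, read 124, 125 and 75.3 TPM against 156, 172 and 126 TPM. Its groups were separated by less than the spread within either, and the difference was -0.50 ± 0.26 (adjusted p = 0.501), or -0.26 without TREM2+ replicate 3.

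Of 12 other type 1 genes, 11 were tested and none passed in limma, while 1 lay higher and 2 lower at p under 0.05 without adjustment. Rab7b, a small GTPase of endosomes, averaged 52.8 ± 9.05 against 27.1 ± 8.89 TPM, and Gcsam 1.80 ± 0.58 against 4.20 ± 1.32 TPM. Neither passed (adjusted p = 0.126 and adjusted p = 0.219), although Rab7b did without TREM2- replicate 2 (adjusted p = 0.0428).

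**Figure D2:**
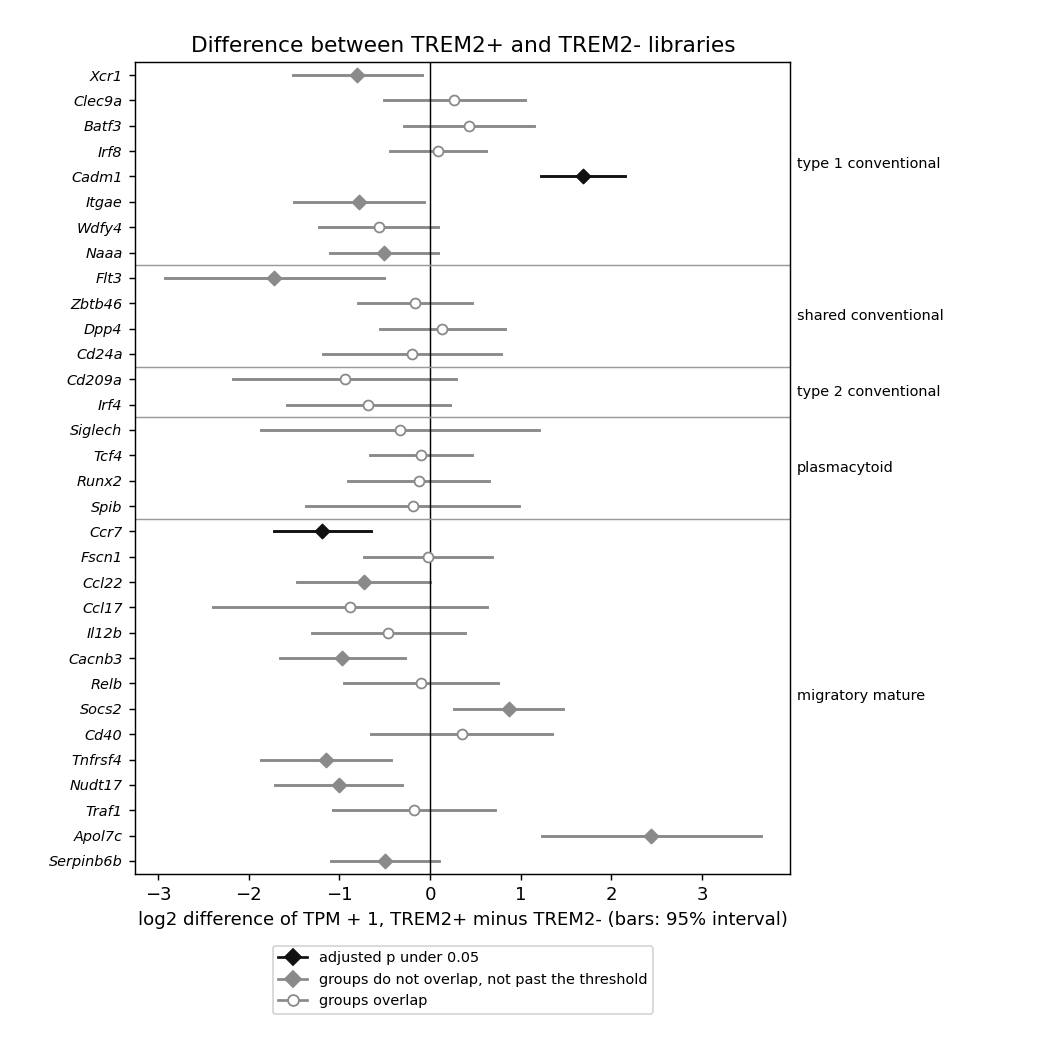
Difference of each tested gene between TREM2+ and TREM2- libraries (log2 of TPM + 1) with its 95% interval from limma; black marks genes past an adjusted p of 0.05, diamonds genes whose groups do not overlap, open circles genes whose groups overlap. Cadm1 at 1.69 and Ccr7 at -1.19 passed, and Apol7c has the largest difference at 2.44.

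The genes shared by conventional cells were led by Flt3, the receptor for the growth factor on which their precursors depend. Flt3 stood at 3.49, 10.8 and 1.19 TPM in the TREM2+ libraries and at 11.6, 19.6 and 14.9 TPM in the TREM2- libraries. TREM2+ replicate 2 came close to the lowest TREM2- library and the other TREM2+ libraries were well below. The mean was 2.98-fold higher in the TREM2- libraries, but the difference of -1.72 ± 0.53 did not pass (adjusted p = 0.181). It passed without TREM2+ replicate 2, at -2.36 with an adjusted p of 0.0143. Unlike most of the genes, Flt3 was lowest among the TREM2- libraries in replicate 1, and without that library the difference was -1.89 ± 0.64; without TREM2+ replicate 3 it was -1.14.

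Zbtb46, a transcription factor that sets conventional dendritic cells apart from monocytes and most macrophages, was low throughout. It read 2.50, 1.67 and 1.70 TPM in the TREM2+ libraries against 3.28, 1.66 and 2.12 TPM in the TREM2- libraries. The groups overlapped, and the 95% interval of the difference of -0.16 ran from -0.79 to 0.46. Dpp4, the surface peptidase CD26, averaged 14.6 ± 0.93 against 14.1 ± 6.56 TPM, and the glycoprotein gene Cd24a 132 ± 23.3 against 175 ± 119 TPM, with overlap in both. Mycl, a MYC family factor of conventional cells, lay between 0.27 and 0.87 TPM in the TREM2+ libraries and between 0.62 and 1.83 TPM in the TREM2- libraries. None of the 5 shared genes passed in limma, while none lay higher and 1 lower (Flt3) at p under 0.05 without adjustment.

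Both type 2 genes had their high mean in the TREM2- group from 1 library. Cd209a, a C-type lectin of the DC-SIGN family, stood at 25.3, 31.1 and 28.6 TPM in the TREM2+ libraries and at 154, 25.9 and 41.6 TPM in the TREM2- libraries. TREM2- replicate 1 stood apart and replicate 2 fell among the TREM2+ libraries. The difference was -0.94 ± 0.54 with all libraries and -0.21 ± 0.25 without TREM2- replicate 1. Reads of Cd209a could be split with related members of its gene family, which was not tested, so its level is uncertain. Irf4, the factor of type 2 cells, read 0.74, 1.77 and 1.02 TPM against 5.03, 1.15 and 2.09 TPM. Its groups overlapped, and the difference moved from -0.68 ± 0.40 to -0.27 ± 0.31 without the same library. Neither gene passed in limma, and neither had an unadjusted p under 0.05.

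Other type 2 genes numbered 14, of which 13 were tested. Without adjustment, 1 lay higher and 2 lower (Clec4a4 and Tbx21) at p under 0.05, beside 7.45% and 5.34% of all genes tested. In limma none passed as lower, beside 0.37% of all genes tested. The 1 gene that passed as higher, beside 2.05%, was Esam. This junction adhesion gene, used as a marker of a splenic type 2 population and known foremost from endothelium, rose from 2.73 ± 1.02 to 21.3 ± 4.19 TPM (2.60 ± 0.27, adjusted p = 0.0044). It moved with the endothelial markers given above, whose part was not tested, and kept its call whichever of the 6 libraries was omitted, but not without both libraries numbered 3 (adjusted p = 0.124). Clec4a4, the inhibitory lectin DCIR2 of type 2 cells, averaged 6.25 ± 2.12 against 12.7 ± 4.12 TPM with no overlap of the groups (adjusted p = 0.257).

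Plasmacytoid genes were low and varied most within the TREM2- group. Siglech, a sialic acid-binding receptor that marks these cells in the mouse, stood at 2.99, 2.16 and 3.08 TPM in the TREM2+ libraries and at 13.9, 0.52 and 3.54 TPM in the TREM2- libraries. The highest and the lowest value both belonged to the TREM2- group, with 418 reads in replicate 1 and 13 in replicate 2. Spib, an ETS family factor of plasmacytoid and B cells, read 1.81, 0.98 and 1.85 TPM against 5.91, 0.42 and 1.41 TPM and had the same extremes. Ccr9, a gut-homing chemokine receptor, lay between 0.37 and 0.64 TPM against 0.14 to 1.16 TPM, and Runx2, a factor that controls the exit of plasmacytoid cells from bone marrow, between 2.45 and 3.37 against 1.64 to 5.51 TPM. Tcf4, the factor that sets plasmacytoid identity, varied least, at 3.98 ± 0.72 against 4.35 ± 0.98 TPM. Runx2 and Ccr9 overlap genes on the opposite strand in the annotation, and Ccr9 also 1 on the same strand, so their reads cannot be told apart with certainty.

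All 5 plasmacytoid genes were highest in TREM2- replicate 1, and 4 were lowest in TREM2- replicate 2. None of the 4 tested genes passed in limma, and none had an unadjusted p under 0.05. Differences ran from -0.33 ± 0.68 for Siglech to -0.10 ± 0.25 for Tcf4, and without TREM2- replicate 1 all 4 were above 0, from 0.04 for Tcf4 to 0.50 for Siglech. The B cell markers had the same highest and lowest library: they summed to 176, 150.2 and 166 TPM in the TREM2+ libraries and to 425, 64.6 and 196 TPM in the TREM2- libraries, with 10 of 10 highest in TREM2- replicate 1 and 9 of 10 lowest in TREM2- replicate 2. No B cell marker was at 0 in any library, and their part in the plasmacytoid values was not tested.

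Of 15 other plasmacytoid genes 12 were tested and none passed in limma, while 1 lay higher and 3 lower at p under 0.05 without adjustment. Smim5 averaged 3.85 ± 0.79 against 18.6 ± 12.1 TPM (-1.85 ± 0.40, adjusted p = 0.0523), and passed without TREM2- replicate 2 (adjusted p = 0.0248) or TREM2- replicate 3 (adjusted p = 0.045). Lair1, a collagen receptor that macrophages also carry, averaged 77.9 ± 14.3 against 47.4 ± 3.83 TPM (adjusted p = 0.196). Of the 15 genes 12 were highest in TREM2- replicate 1.

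**Figure D3:**
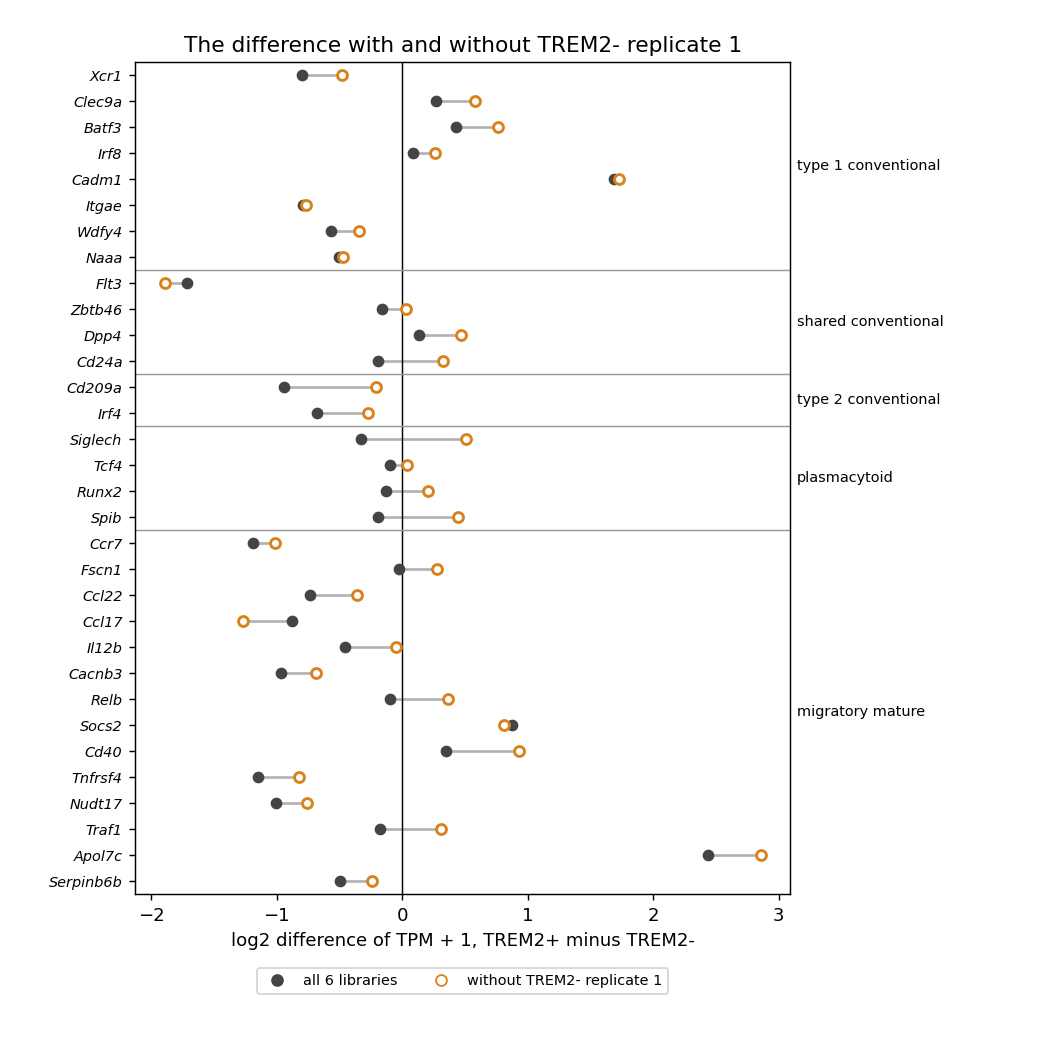
Difference of each tested gene (log2 of TPM + 1, TREM2+ minus TREM2-) with all 6 libraries (dark points) and without TREM2- replicate 1 (open orange points). The 4 plasmacytoid genes move from below 0 to above 0, while Cadm1, Ccr7, Flt3 and Apol7c keep their sign.

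The 14 genes of migratory mature cells went in both directions. Ccr7, the receptor for CCL19 and CCL21 that guides mature cells to lymph nodes, was the 1 gene of this subset to pass (ENSMUSG00000037944.8, chromosome 11, 99144196 to 99155077, mm10). It stood at 20.3, 20.9 and 16.7 TPM in the TREM2+ libraries and at 58.1, 41.8 and 37.8 TPM in the TREM2- libraries. All TREM2- libraries lay well above all TREM2+ libraries. The difference was -1.19 ± 0.24 with an adjusted p of 0.0365, also without TREM2- replicate 2 (adjusted p = 0.0478). The call was lost without TREM2+ replicate 1 (adjusted p = 0.111), TREM2+ replicate 2 (0.0761), TREM2+ replicate 3 (0.111), TREM2- replicate 1 (0.0606) or TREM2- replicate 3 (0.0685), with differences from -1.31 to -1.01, and with the replicate number as a block (adjusted p = 0.0628).

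T cell markers, some of which mark cells that also carry Ccr7, summed to 355, 324 and 332 TPM in the TREM2+ libraries and to 1138, 414 and 449 TPM in the TREM2- libraries. All 10 had a difference below 0, 6 of 10 without overlap of the groups, none passed, and no T cell marker was at 0 in any library. Their part in the Ccr7 difference was not tested. Tnfrsf4, the costimulatory receptor OX40 known from activated T cells, read 48.1, 39.4 and 50.3 TPM against 162, 98.9 and 67.0 TPM. It too was higher in every TREM2- library, and the difference of -1.15 ± 0.32 did not pass (adjusted p = 0.125), but passed in limma's voom on recovered reads (adjusted p = 0.0304).

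The chemokines of mature cells that bind CCR4 differed in pattern. Ccl22 stood at 11.8, 9.05 and 11.1 TPM in the TREM2+ libraries and at 31.0, 14.4 and 13.4 TPM in the TREM2- libraries. The groups did not overlap, but 2 of the TREM2- libraries were only just above the TREM2+ libraries, and the difference was -0.73 ± 0.32 with all libraries and -0.36 ± 0.20 without TREM2- replicate 1. Ccl17 read 112, 53.5 and 15.2 TPM against 48.9, 158 and 77.7 TPM. It varied widely within both groups, and its difference of -0.88 ± 0.67 had a 95% interval from -2.39 to 0.63. With 1 library omitted it ran from -1.53 (without TREM2+ replicate 1) to -0.12 (without TREM2+ replicate 3), and it was -0.43 without TREM2- replicate 2. The 6 libraries had the same order by Ccl17 as by the summed monocyte markers, which came to 29747, 13716 and 3361 TPM against 12395, 73403 and 20669 TPM and are mostly Chil3; this likeness was noticed after the values were seen, and the part of monocytes was not tested.

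Of the other genes of the mature state, Cacnb3, a calcium channel subunit, read 0.91, 1.61 and 1.32 TPM against 5.48, 2.58 and 2.71 TPM. Nudt17, a nudix hydrolase, read 2.09, 1.44 and 1.04 TPM against 6.01, 2.695 and 3.82 TPM. Both were higher in every TREM2- library, with differences of -0.97 ± 0.31 and -1.01 ± 0.31 that did not pass (adjusted p = 0.191 and adjusted p = 0.176). Nudt17 overlaps the exons of Pias3 on the opposite strand, so its reads are uncertain. Serpinb6b, a serine protease inhibitor with related family members, stood at 9.86, 10.9 and 9.78 TPM against 21.3, 12.3 and 12.2 TPM. Its groups were apart by a small margin, with a difference of -0.50 ± 0.26 that was -0.25 without TREM2- replicate 1.

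Fscn1, the actin-bundling protein of dendrites, read 2.02, 1.54 and 1.45 TPM in the TREM2+ libraries against 3.09, 1.16 and 1.24 TPM in the TREM2- libraries. The TREM2- group held both extremes, and the interval of the difference of -0.02 ran from -0.73 to 0.68. Relb (12.9 ± 1.69 against 15.6 ± 10.1 TPM), the NF-kB subunit of mature cells, had the same form, as did the signalling adaptor Traf1 (8.59 ± 1.49 against 11.1 ± 7.68 TPM) and the costimulatory receptor Cd40 (29.2 ± 3.44 against 27.2 ± 21.5 TPM). In all 3 TREM2- replicate 1 was highest, while without it the differences were 0.37 for Relb, 0.30 for Traf1 and 0.93 for Cd40, none of which passed. For Cd40 the difference was 0.35 with all libraries, 0.0387 without TREM2- replicate 2 and 0.0723 without TREM2- replicate 3. Il12b, the shared subunit of interleukins 12 and 23, averaged 4.29 ± 1.42 against 6.75 ± 4.13 TPM with overlap, and its difference of -0.46 was -0.052 without TREM2- replicate 1.

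Socs2 and Apol7c were higher in the TREM2+ libraries. Socs2, an inhibitor of growth hormone and cytokine signalling, stood at 8.82, 10.99 and 6.21 TPM against 3.74, 3.73 and 5.20 TPM. The groups were apart, and the difference of 0.87 ± 0.27 did not pass (adjusted p = 0.173). Apol7c, an apolipoprotein L family member induced in mature dendritic cells, read 26.8, 32.9 and 82.4 TPM in the TREM2+ libraries against 13.1, 2.80 and 8.22 TPM in the TREM2- libraries (chromosome 15, 77524852 to 77533316, mm10). All TREM2+ libraries were at least 2-fold above the highest TREM2- library, and TREM2+ replicate 3 stood apart from the rest. Its mean was 5.90-fold higher, the highest ratio of the 34 genes, and the difference of 2.44 ± 0.53 fell just short (adjusted p = 0.0548). It passed without TREM2+ replicate 1 (adjusted p = 0.0251) and without TREM2- replicate 2 (adjusted p = 0.0249). Reads of Apol7c could be split with related members of its gene family, which was not tested, so its count is uncertain.

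The sequence upstream of Apol7c is shown because this gene had the largest difference among the mature genes. Beside it is that of Ccl22, a mature gene with the opposite sign (-0.73). Ccl22 was not the mature gene furthest below 0: Tnfrsf4 (-1.15), Nudt17 (-1.01), Cacnb3 (-0.97) and Ccl17 (-0.88) were further. Each line gives the 250 bases before the gene's RefSeq start (build GRCm38.p6), written 5′ to 3′ along the gene, with matches to the motifs searched in capitals.
Apol7c (chr15:77533316-77533565, minus strand): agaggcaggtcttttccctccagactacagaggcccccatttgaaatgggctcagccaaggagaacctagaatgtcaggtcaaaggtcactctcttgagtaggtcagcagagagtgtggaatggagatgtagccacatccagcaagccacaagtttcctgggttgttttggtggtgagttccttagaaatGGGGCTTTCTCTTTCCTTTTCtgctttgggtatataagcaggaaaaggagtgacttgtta
Ccl22 (chr8:94745434-94745683, plus strand): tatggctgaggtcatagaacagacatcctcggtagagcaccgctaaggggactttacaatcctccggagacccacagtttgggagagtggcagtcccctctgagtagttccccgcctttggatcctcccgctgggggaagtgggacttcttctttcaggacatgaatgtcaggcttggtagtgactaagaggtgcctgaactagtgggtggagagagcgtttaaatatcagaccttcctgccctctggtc
Searched on both strands were an IRF motif (GAAANNGAA), an ETS-IRF motif (GGAANNGAA), a kB motif (GGGNNNTTC) and an AP-1 motif (TGANTCA); the first and the second differ in 1 base. The Apol7c window holds a kB match that begins 60 bases before the start. It also holds a pair of IRF matches on the opposite strand, which begin 54 and 48 bases before the start and overlap each other. The kB match overlaps only the IRF match that begins at 54 bases. The Ccl22 window holds none of the motifs. Promoters of 26 of the 34 genes were in the table, 28 windows in all. The IRF motif was in 4 of these 28 windows (Apol7c, Cacnb3, Tnfrsf4 and Dpp4) and in 7.13% of all 32851 windows. Its 4 genes went in both directions, with differences of 2.44 for Apol7c, 0.13 for Dpp4, -0.97 for Cacnb3 and -1.15 for Tnfrsf4. The kB motif was in 3 (Apol7c, Mycl and Irf4) and in 11.8%. The ETS-IRF motif was in 1 (Cd209a) and in 6.99%, and AP-1 in 1 (Zbtb46) and in 6.75%. A match is a description of letters and not a site of binding.

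Of 28 other genes of dendritic cell maturation, a list separate from the genes described above, 25 were tested. The list was chosen with earlier results of these data known, so its counts beside those of all genes are only a description. In limma 6 of this list rose and none fell, where 2.05% and 0.37% of all genes tested did. At p under 0.05 without adjustment, 9 lay higher and 1 lower, beside 7.45% and 5.34%. H2-M2, a non-classical MHC class I gene, rose from 9.64 ± 4.74 to 62.9 ± 29.2 TPM (2.61 ± 0.42, adjusted p = 0.0167), and the annexin gene Anxa3 from 74.3 ± 11.1 to 171 ± 16.7 TPM. Gadd45b, a stress-induced signalling gene, rose from 82.4 ± 20.3 to 195 ± 6.02 TPM, and Pdcd1lg2, the PD-1 ligand PD-L2, from 16.1 ± 2.90 to 44.1 ± 13.2 TPM. The other 2, named after their values were seen, were Zmynd15 (4.56 ± 2.05 to 17.2 ± 4.38 TPM) and the PD-1 ligand Cd274 (48.4 ± 15.6 to 160 ± 51.0 TPM).

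With each library omitted in turn, H2-M2 lost its call only without TREM2- replicate 3 (adjusted p = 0.0638). Anxa3 stayed called only without TREM2- replicate 2 (adjusted p = 0.0245), Gadd45b only without TREM2- replicate 1 (adjusted p = 0.0168) and Pdcd1lg2 only without TREM2+ replicate 2 (adjusted p = 0.0477). Zmynd15 stayed called without TREM2+ replicate 1 (adjusted p = 0.0466) or TREM2- replicate 2 (adjusted p = 0.028), and Cd274 without TREM2+ replicate 2 (adjusted p = 0.0181) or TREM2- replicate 2 (adjusted p = 0.0145). In the other fits with 1 library omitted their adjusted p-values reached 0.0752 for Anxa3, 0.0893 for Gadd45b, 0.104 for Pdcd1lg2, 0.0761 for Zmynd15 and 0.109 for Cd274. With the libraries rescaled without the Gm10800 repeat family, whose uneven share (0.43% to 24.6% of TPM) is given above, the adjusted p was 0.052 for H2-M2, 0.0569 for Anxa3, 0.0672 for Pdcd1lg2, 0.0603 for Zmynd15 and 0.0554 for Cd274, while Gadd45b stayed called (0.0179), and without both libraries numbered 3 none of the 6 passed (0.241 to 0.343). Most of these genes are also made by activated macrophages.

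Ligands and receptors that pair with the genes above numbered 14, of which 11 were tested and none passed in limma, while none lay higher and 2 lower at p under 0.05 without adjustment. Flt3l, the ligand of FLT3, averaged 2.41 ± 0.46 against 5.61 ± 3.35 TPM, and Il12rb2, a receptor subunit for interleukin 12, 1.53 ± 0.52 against 3.54 ± 1.89 TPM. Both were higher in every TREM2- library, and neither passed (adjusted p = 0.342 and adjusted p = 0.37).

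**Figure D4:**
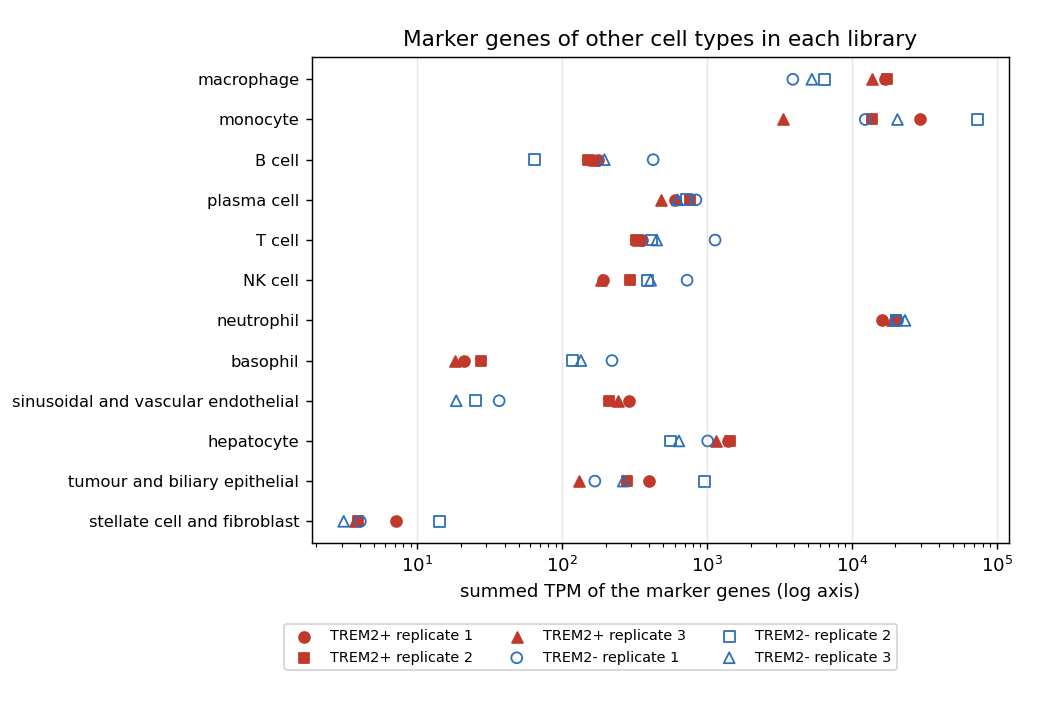
Summed TPM of marker genes of 12 other cell types in each library on a log axis; filled red symbols are TREM2+ libraries, open blue symbols TREM2- libraries. In sum, the endothelial markers (209.6 to 291 TPM against 18.5 to 36.7 TPM) and macrophage markers are higher in every TREM2+ library. The summed T cell, natural killer cell and basophil markers are higher in every TREM2- library. Singly, 3 of the 10 macrophage markers overlap between the groups.

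Markers of other cell types set the scale of these values. The 10 macrophage markers summed to 13760 to 17607 TPM in the TREM2+ and 3917 to 6483 TPM in the TREM2- libraries. C1qb alone averaged 6170 ± 832 against 989 ± 373 TPM, while Csf1r, Adgre1 and Cd14 overlapped between the groups. The 8 neutrophil markers summed to 16180 to 20280.2 TPM against 20204 to 23285 TPM, although 5 of the 8 had a difference above 0. Cxcr2 and S100a9 were higher in every TREM2+ library, and Ngp was higher in every TREM2- library. Basophil markers came to 18.3 to 27.4 TPM against 118 to 221 TPM and natural killer cell markers to 187 to 294 TPM against 391 to 729 TPM. Plasma cell (479.6 to 767 against 625 to 838 TPM), hepatocyte (1153 to 1431 against 560.1 to 1011 TPM), epithelial (131 to 400.0 against 168 to 966 TPM) and stellate cell markers (3.72 to 7.13 against 3.10 to 14.2 TPM) completed the lists. Among the 9 hepatocyte markers Trf, which macrophages also make, was the 1 that was higher in every TREM2+ library.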

How the data were processed

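The 6 libraries were sequenced from polyadenylated RNA extracted with TRIzol, per the labels' protocols. Per the submitters' processing notes, the tools were STAR 2.7.10a, Subread and featureCounts 2.0.3 with build mm10; for annotation, strand setting and formula, nothing is given in the sources used here. The deposited table is named TPM, but the authors' values are a length-scaled signal whose 6 columns together sum to 1000000. Each column was rescaled here to 1000000, and no column lacked a sample. Multiplying by exon lengths of GENCODE M21 (mm10; 53180 symbols matched) gave whole reads within 0.01 in all 6 libraries for 98.7% of the 36671 matched rows above 0, and for 33 of the 34 genes, not Cadm1. Reads served for depth and for voom.

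limma 3.58.1 in R 4.3.3 was run on log2(TPM + 1), two-sided and with its trend of variance on level. On simulated reads with known changes the same fit made more false calls than its threshold allows and missed most small changes. The 34 genes, the lists of other dendritic cell genes and the 12 marker lists were chosen with earlier results of these data known. Values in every library are given for genes that passed, whose groups do not overlap, or that define a subset, and of each list of other genes those with the smallest p are named. Exon overlaps and coordinates are those of GENCODE M21; promoter windows are from RefSeq (GRCm38.p6), and the IRF, ETS-IRF and kB motifs were each shortened by their last base after longer forms had been searched. Alternatives covered the pseudocount, filter, scaling, replicate block, trend, library weights, voom, threshold and libraries left out.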

Additional observations from a re-analysis of the deposited data

How the results depend on the processing

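Cadm1 was called in 16 of the 17 other settings that gave it a value and Ccr7 in 9 of 18; Cadm1 had no recovered reads and so no value in voom. The number of the 34 genes called higher, 1 in the reported fit, was 2 with a pseudocount of 5, a TPM of at least 5, the deposited values or an adjusted p under 0.1 (Apol7c being added), 3 with library weights (Apol7c and Socs2), and 0 with voom or without both libraries numbered 3, where 2 and 3 genes were higher at an unadjusted p under 0.05. With 1 library left out it lay between 1 and 2. The number called lower, also 1, was 0 with no filter, with the replicate block and without both libraries numbered 3 (7, 9 and 3 at an unadjusted p under 0.05), 2 with voom (Ccr7 and Tnfrsf4), 4 with library weights (Ccr7, Flt3, Tnfrsf4 and Cacnb3), and between 0 and 1 with 1 library left out. With the deposited values the 1 lower gene was Flt3 and not Ccr7.

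The labels do not say whether the replicate numbers pair the samples, and 3 libraries per group are too few to settle it. Deviations of same-numbered libraries correlated at 0.19, -0.03 and 0.22. TREM2+ replicates 1 and 3 correlated best with the TREM2- library of the same number, and TREM2+ replicate 2 with TREM2- replicate 3 (0.13). With the replicate block 116 genes of all were called higher and 10 lower, against 282 and 51; the counts were 976 and 389 with library weights, 444 and 170 with voom, 95 and 3 with no filter, 206 and 92 with the deposited values, 284 and 101 without the repeat family, 420 and 80 with median-of-ratios scaling, 252 and 31 with a pseudocount of 0.1, 425 and 89 at an adjusted p under 0.1 and 0 and 0 without both libraries numbered 3.

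The cause of changes of sign was not tested. Differences that changed sign lay between -0.33 (Siglech) and 0.27 (Clec9a) in the reported fit, but some moved widely between settings. With library weights they were 0.18 for Zbtb46, 0.61 for Cd24a, 0.89 for Siglech, 0.12 for Tcf4, 0.32 for Runx2, 0.60 for Spib, 0.32 for Fscn1, 0.37 for Relb and 0.17 for Traf1. Irf8 had -0.0048 with the deposited values and -0.0432 without both libraries numbered 3, and Fscn1 0.00088 with a pseudocount of 0.1 and 0.0442 with median-of-ratios scaling. Leaving out 1 library gave -0.0247 to 0.58 for Clec9a, -0.0899 to 0.26 for Irf8, -0.32 to 0.0271 for Zbtb46, -0.10 to 0.47 for Dpp4, -0.65 to 0.32 for Cd24a, -1.14 to 0.50 for Siglech, -0.23 to 0.0375 for Tcf4, -0.45 to 0.21 for Runx2, -0.70 to 0.44 for Spib, -0.19 to 0.27 for Fscn1, -0.34 to 0.37 for Relb and -0.48 to 0.30 for Traf1. For genes of a few TPM, such as Xcr1, Clec9a, Spib and Siglech, low read numbers limit the precision, and read counts cover counting error only.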
